A study of Homo sapiens with 14 samples.

Results

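Expression of 9 genes of the prostaglandin pathway was followed across 7 human prostate cancer cell lines, with 2 arrays per line. The genes were PLA2G4A, which releases arachidonic acid from membranes, the cyclooxygenase genes PTGS1 and PTGS2, the prostaglandin E2 synthase genes PTGES, PTGES2 and PTGES3, the prostaglandin-degrading enzyme gene HPGD, and the prostaglandin E2 receptor genes PTGER2 and PTGER4. Each was represented by the probe set annotated with its symbol alone, and these 9 genes are among 18372 that were tested. Membership was set by symbol, but PLA2G4A is treated as chosen by its measured level in 1 line, Clone 3, so its values are described here with no test and it is left out of counts of called genes, which run over the 8 others.

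The lines labelled bone metastatic were PC3-ML (Clone 1) and PC3-ML (Clone 3), here Clone 1 and Clone 3, their parent PC3-ML, and PC3-N(PDGFRα). The lines labelled as not bone metastatic were PC3-N, DU-145 (PDGFRα) and DU-145. PC3, from which PC3-ML and PC3-N derive, came from a prostate cancer metastasis in bone, and DU-145 is a prostate cancer line from a metastasis in brain. Each clone descends from a single PC3-ML cell and stands for 1 such cell, so a difference between a clone and its parent is one of that clone alone. The 2 lines marked PDGFRα were made to overexpress that receptor of platelet-derived growth factor. The promoter of the construct is not given in the sources used here. All lines grew in the same serum-containing DMEM with gentamicin, with no stimulus named in the labels. The 2 arrays of a line came from different passages, so the tests between lines measure a difference against the spread between passages of a line.

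Across the 14 arrays, intensities ran from 18.5 to 8654 with array medians between 29.9 and 31.6, and the arrays of a line correlated at 0.9891 to 0.9959 over genes, which are not independent replicates. On 2 arrays the best match lay outside the line: PC3-N replicate 2 correlated at 0.9935 with PC3-ML replicate 2 and at 0.9925 with PC3-N replicate 1, and DU-145 replicate 2 at 0.9905 with replicate 1 of DU-145 (PDGFRα) and at 0.9891 with replicate 1 of DU-145. The files hold no detection calls. Near the low end intensities can be compressed, so a difference against a value there may be a low estimate, which was not tested. Where both values lie there, a small difference cannot be told from background signal. PDGFRA intensity was 817 and 850 in PC3-N(PDGFRα) against 103 and 109 in PC3-N, and 130 and 92.2 in DU-145 (PDGFRα) against 28.2 and 25.5 in DU-145. It also differed in Clone 1, at 31.0 and 26.5 against 130.1 and 125.5 in Clone 3 and 104 and 155 in PC3-ML (−2.16 and −2.15, limma adjusted p = 0.00014 for both, kept in every alternative), and its part in the other differences of Clone 1 was not tested. The epithelial marker EPCAM averaged 454 to 1635 per line, while CDH1 averaged 29.6 in the PC3 lines and 110 in the DU-145 lines. Of 3 measured luminal prostate markers, KLK3 and KLK2 stayed between 25.7 and 32.2. The other, HOXB13, averaged 149 in the PC3 lines and 32.8 in the DU-145 lines. CTNNA1, known to be deleted in PC3, lay at 23.1 to 24.0 in the 5 PC3 lines. The 6 measured leukocyte, mast cell and platelet markers averaged 19.9 to 31.3, and VWF and CDH5 of endothelium 21.9 to 24.4. PECAM1, the other endothelial marker, averaged 63.8 in the PC3 lines, with 90.3 in Clone 1, and 22.2 in the DU-145 lines. A culture was measured as a whole, so more transcript per cell and more cells expressing a gene cannot be told apart.

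Prostaglandins are made when cytosolic phospholipase A2, the product of PLA2G4A, moves to membranes in response to calcium and frees arachidonic acid. Cyclooxygenases turn the acid into prostaglandin H2, terminal synthases turn that into prostaglandin E2 and other prostanoids, and 15-hydroxyprostaglandin dehydrogenase, the product of HPGD, inactivates them. Prostaglandin E2 signals through receptors that include EP2 and EP4, both of which raise cyclic AMP, and in bone it acts on the cells that form and resorb the matrix.

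PLA2G4A and PTGS2 lie next to each other on chromosome 1, with 0 other coding genes between them in the RefSeq annotation, and they are read from opposite strands. Their promoters are shown because both genes were at their highest in the same line, Clone 3. HPGD also had its highest mean in Clone 3, with arrays overlapping those of PC3-N, and its promoter is not shown. Each window holds the 250 bases before the annotated start (RefSeq, GRCh38.p14), at chr1:186828699-186828948 on the plus strand for PLA2G4A and chr1:186680424-186680673 on the minus strand for PTGS2. Capitals mark matches to the searched motifs, and both are written 5′ to 3′ along the gene.
PLA2G4A: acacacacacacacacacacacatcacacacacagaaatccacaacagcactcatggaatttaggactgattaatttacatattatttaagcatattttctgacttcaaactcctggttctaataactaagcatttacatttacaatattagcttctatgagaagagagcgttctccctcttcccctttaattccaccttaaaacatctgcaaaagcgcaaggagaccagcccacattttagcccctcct
PTGS2: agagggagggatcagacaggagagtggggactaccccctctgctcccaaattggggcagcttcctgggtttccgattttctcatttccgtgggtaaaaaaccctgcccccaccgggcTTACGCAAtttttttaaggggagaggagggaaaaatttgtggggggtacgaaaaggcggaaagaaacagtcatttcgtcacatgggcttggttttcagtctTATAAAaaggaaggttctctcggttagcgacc

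The searched letters, on both strands, were TGACGTCA for the cyclic AMP response element, TTGCGCAA and the looser TTGCNNAA, which includes it, for C/EBP factors, TATAAA for a TATA box, TGANTCA for AP-1, and the kappa B consensus. The PTGS2 window held a match to TTGCNNAA starting 133 bases before the start, a pattern found in 9.05% of 35116 promoter windows of the same length, and TATAAA 32 bases before the start, found in 10.7% of windows. The PLA2G4A window held none of the searched letters, and neither window held TGACGTCA (1.65% of windows), TTGCGCAA (0.131%), TGANTCA (6.57%) or the kappa B consensus (5.21%). The PLA2G4A window was 38.8% G and C and the PTGS2 window 50.4%, against a median of 58.0% over all windows. Only exact matches to the searched letters were counted, so a site that departs from them in any base is missed. The lack of a match therefore does not show that a site is absent. A match is a description of letters, and no array value bears on binding there.

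PLA2G4A, the arachidonate-releasing step, stood out in 1 clone. Its intensity was 152 and 157 on the Clone 3 arrays, against 32.3 and 32.9 in PC3-ML, the parent of the clone. The mean of 154.4 ± 3.92 in Clone 3 (SD, n = 2) was 4.73-fold the parent's, a log2 difference of 2.24 (SE 0.14). The SE describes the spread between passages, and the gene was taken as chosen by this level. With a pseudocount of 16 the difference was smaller, at 1.81. The Clone 3 arrays lay above all 12 others, so no other line overlapped them.

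Clone 1, drawn from the same parent, did not share this level. PLA2G4A read 27.2 and 29.1 in Clone 1, and its log2 difference to PC3-ML was −0.21 (SE 0.14). To Clone 3 the difference was −2.46 (SE 0.14), or −1.95 with a pseudocount of 16. In the other PC3 lines PLA2G4A read 42.8 and 28.9 in PC3-N(PDGFRα) and 29.8 and 27.8 in PC3-N. In DU-145 (PDGFRα) it was 21.1 and 22.6, and in DU-145 21.6 on both arrays, near the low end of the scale. Ordered by mean, the lines ran Clone 3, PC3-N(PDGFRα), PC3-ML, PC3-N, Clone 1, DU-145 (PDGFRα) and DU-145. The arrays of PC3-N(PDGFRα) and of PC3-ML overlapped, those of PC3-N overlapped Clone 1, and those of the DU-145 lines overlapped each other.

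**Figure D1:**
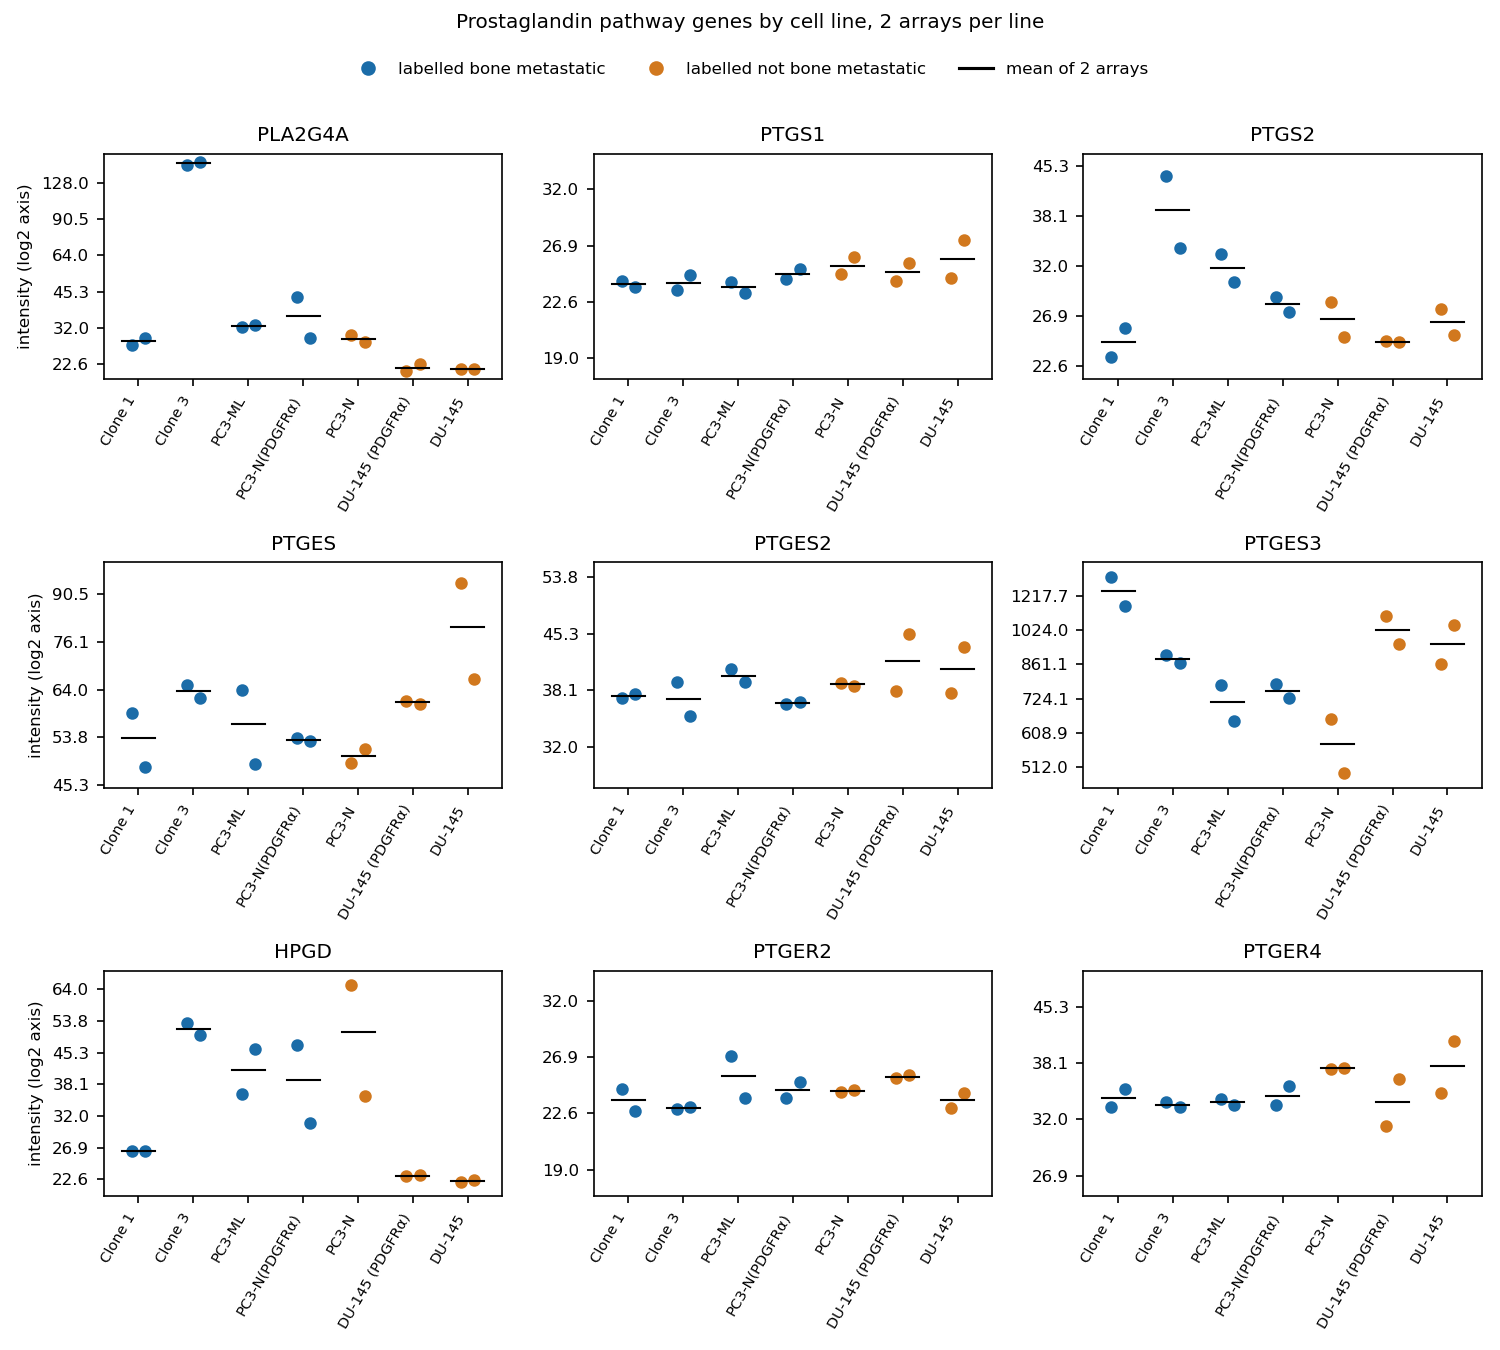
Intensity (log2 axis, its range set per panel) of the 9 genes in each line, with 1 point per array and a bar at the mean of 2 arrays. Blue marks lines labelled bone metastatic and orange the others. PLA2G4A stands at 152 and 157 in Clone 3 and at or below 42.8 on every other array. PTGS1 and PTGER2 stay between 22.8 and 27.4 in all lines, near the low end of the scale.

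Averages of PLA2G4A over wider groupings were smaller without Clone 3. Over line means its intensity averaged 62.8 in the bone-metastatic lines and 24.1 in the others, a log2 difference of 0.99 (SE 0.61), which was 0.42 without Clone 3. The 5 PC3 lines averaged 56.0 against 21.7 in the 2 DU-145 lines, a difference of 0.98 (SE 0.68), or 0.52 without Clone 3. PC3-N(PDGFRα) differed from PC3-N by 0.29 (SE 0.14), a value that 1 array carries: it was 0.01 without replicate 1 of that line and 0.57 without replicate 2. PC3-ML differed from PC3-N by 0.18 and DU-145 (PDGFRα) from DU-145 by 0.02 (SE 0.14 for both).

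Of the cyclooxygenases, which carry out the committed step, PTGS2 (the inducible COX-2) varied between lines by more than PTGS1 (the constitutive COX-1). PTGS2 read 23.3 and 25.8 in Clone 1, near the low end of the scale, against 43.8 and 34.0 in Clone 3. Clone 1 was lower on both arrays, and the log2 difference of −0.65 (SE 0.12) passed the test across all genes (limma, adjusted p = 0.0057). In PC3-ML the values were 33.4 and 30.2, between those of the clones and overlapping neither. Neither clone passed the test against this parent: Clone 1 differed by −0.37 (SE 0.12, adjusted p = 0.062) and Clone 3 by 0.28 (SE 0.12, adjusted p = 0.20). The call between the clones was lost without Clone 1 replicate 1 (−0.58, adjusted p = 0.0517). PTGS2 did not exceed 43.8 on any array, so the filter on dim genes (intensity above 50) removed it and could not test this call. Clone 1 against PC3-ML was called when the variance prior followed intensity (adjusted p = 0.0239) or the replicate number was a block (adjusted p = 0.0432), and Clone 3 against PC3-ML without Clone 3 replicate 2 (0.46, adjusted p = 0.0483).

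In the remaining lines PTGS2 stayed in a narrow range. It read 28.7 and 27.3 in PC3-N(PDGFRα) against 28.2 and 24.97 in PC3-N, and 24.6 on both arrays of DU-145 (PDGFRα) against 27.6 and 25.1 in DU-145. The first of these pairs overlapped and the second did not. All of these values lay below the lowest array median (29.9), so small differences among them cannot be told from background signal. PTGS1 spanned 23.3 to 27.4 over all 14 arrays, and its line means covered 0.12 on the log2 scale beside a spread between passages of 0.06 (SD). Every neighbour in its order of lines overlapped the next, from DU-145 at 25.8 to PC3-ML at 23.7. These levels lay near that of CTNNA1 in the PC3 lines (mean 23.6), where that gene is known to be deleted. The flat profile of PTGS1 therefore cannot be told from a lack of signal.

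The gene of 1 of the 3 prostaglandin E2 synthases differed in Clone 1. PTGES3, which encodes cytosolic prostaglandin E synthase, also known as the HSP90 co-chaperone p23, read 1337 and 1154 in Clone 1, against 777 and 646 in PC3-ML. Both Clone 1 arrays were the brightest of all 14, and the gene rose by 0.81 on the log2 scale in Clone 1 (SE 0.15, 95% interval 0.48 to 1.14, limma adjusted p = 0.0057), 1.75-fold. This call was kept under all 10 alternative settings, with differences of 0.65 to 0.94. Clone 3, at 904 and 869, lay 0.32 above PC3-ML (SE 0.15, adjusted p = 0.26), and Clone 1 lay 0.49 above Clone 3 (SE 0.15, adjusted p = 0.073, called with a filter on dim genes, 0.0271, or an intensity trend, 0.0336). The RefSeq table lists 5 pseudogenes of PTGES3, and whether its probes also read them was not tested.

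PTGES3 was also the synthase with the largest shift beside PDGFRα in PC3-N, without a call. It read 778 and 729 in PC3-N(PDGFRα) against 654 and 499 in PC3-N, a difference of 0.40 (SE 0.15, adjusted p = 0.25; 0.20 without PC3-N replicate 2, adjusted p = 0.78), and 1098 and 956 in DU-145 (PDGFRα) against 861 and 1051 in DU-145 (0.11, SE 0.15, adjusted p = 0.83). The arrays did not overlap in PC3-N and overlapped in DU-145, and the difference between the 2 effects was 0.29 (SE 0.21, adjusted p = 0.66).

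PTGES encodes the microsomal enzyme that is induced together with COX-2. It read 61.4 and 60.7 in DU-145 (PDGFRα), against 94.01 and 66.5 in DU-145. The receptor line was lower on both arrays, by −0.37 (SE 0.16, adjusted p = 0.37), and by −0.62 without DU-145 replicate 2 (adjusted p = 0.076). In the PC3 lines PTGES read 58.9 and 48.4 in Clone 1, 65.2 and 62.1 in Clone 3, 53.6 and 53.2 in PC3-N(PDGFRα), 64.0 and 48.9 in PC3-ML and 49.1 and 51.6 in PC3-N. In the order of all 7 lines, 3 of the 6 neighbouring pairs overlapped, and none of the 9 comparisons called the gene. PTGES2, a membrane-associated synthase, ranged over 35.1 to 45.3 with line means within 0.18 on the log2 scale. Its PC3 lines averaged 37.9 against 41.1 in the DU-145 lines, a difference of −0.11 (SE 0.04, adjusted p = 0.13) that was called after quantile normalization (−0.13, adjusted p = 0.0482).

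HPGD, the gene of the enzyme that starts prostaglandin breakdown, showed the widest spread between passages among the 9 genes (SD 0.30 on the log2 scale). It read 26.4 and 26.5 in Clone 1, against 53.2 and 49.95 in Clone 3. Clone 1 was lower on both arrays, and HPGD fell by 0.96 on the log2 scale relative to Clone 3 (SE 0.26, limma adjusted p = 0.0424). This call was lost with a pseudocount of 16 (adjusted p = 0.069) and when any 1 of the 4 arrays was left out: adjusted p = 0.162 without Clone 1 replicate 1, 0.165 without its replicate 2, 0.183 without Clone 3 replicate 1 and 0.139 without its replicate 2. PC3-ML, at 36.1 and 46.2, lay between its clones, with Clone 1 minus PC3-ML at −0.63 (SE 0.26, adjusted p = 0.16) and Clone 3 minus PC3-ML at 0.34 (SE 0.26, adjusted p = 0.56).

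Both DU-145 lines had HPGD near the low end, at 23.0 and 23.2 in DU-145 (PDGFRα) and 22.2 and 22.5 in DU-145. PC3-N(PDGFRα) read 47.1 and 30.8 against 65.7 and 35.8 in PC3-N, so the passages of each line differed more than the lines did, and without PC3-N replicate 2 the difference was −0.79 (adjusted p = 0.12). The 5 PC3 lines averaged 41.8 against 22.7 in the 2 DU-145 lines, with all 10 PC3 arrays above all 4 DU-145 arrays. The difference of 0.82 (SE 0.25, adjusted p = 0.072 over line means) was called with the filter on dim genes (adjusted p = 0.0243), an intensity trend (0.0219), the line as a random block (0.0239) or without Clone 1 (0.97, adjusted p = 0.0071).

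Neither receptor gene was called in any of the 9 comparisons. PTGER2, encoding EP2, ranged from 22.8 to 27.0 over the 14 arrays and PTGER4, encoding EP4, from 31.3 to 40.8. Their line means spanned 0.14 and 0.17 on the log2 scale, with spreads between passages of 0.06 and 0.09. PTGER2 lay near the level of CTNNA1 in the PC3 lines (mean 23.6), where that gene is known to be deleted. Without detection calls, the flat profile of PTGER2 cannot be told from a lack of signal. PTGER4 read 33.3 and 35.1 in Clone 1, 33.7 and 33.2 in Clone 3, 33.4 and 35.4 in PC3-N(PDGFRα) and 34.1 and 33.5 in PC3-ML, against 37.4 and 37.5 in PC3-N. PC3-N was thus the highest PC3 line, with PC3-ML minus PC3-N at −0.15 (SE 0.09, adjusted p = 0.65). PTGER4 has 3 pseudogenes in the RefSeq table, and their part in its signal was not tested.

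**Figure D2:**
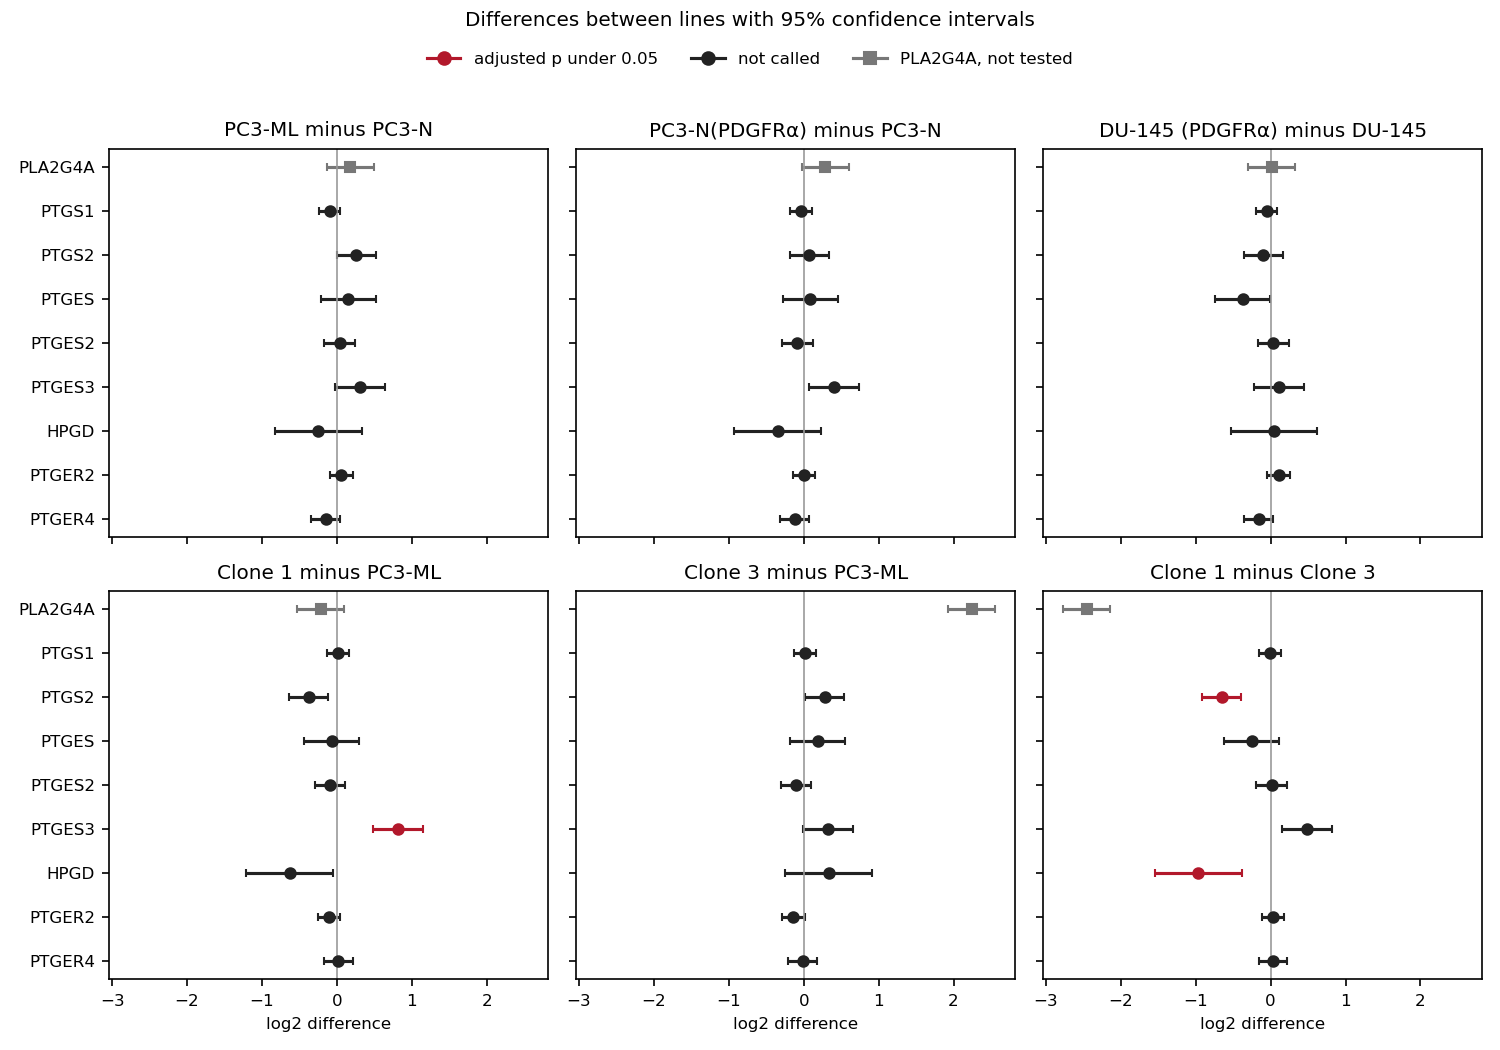
Log2 difference (horizontal axis) of each gene in 6 comparisons between lines, with 95% confidence intervals from limma. Red marks an adjusted p under 0.05, and grey squares mark PLA2G4A, which was not tested and whose intervals only describe the spread between passages. Called differences are PTGES3 in Clone 1 against PC3-ML (0.81) and PTGS2 (−0.65) and HPGD (−0.96) in Clone 1 against Clone 3.

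Counted by comparison, 1 of the 8 genes tested was called in Clone 1 against PC3-ML (higher, PTGES3), where 13.8% of all genes were called, 9.01% higher and 4.77% lower. In Clone 3 against PC3-ML it was 0 of 8, where 8.1% of genes were called, 5.2% higher and 2.9% lower. Between the clones 2 of 8 were called, both lower in Clone 1, against 10.5% of all genes, 5.85% higher and 4.63% lower. The 3 comparisons share arrays of PC3-ML and of the clones. A count of 0 of 8 was found for PC3-ML against PC3-N (0.348% of genes called), PC3-N(PDGFRα) against PC3-N (2.2%), DU-145 (PDGFRα) against DU-145 (0.31%) and the difference between the last 2 effects (0.533%). At an unadjusted p under 0.05 these 4 comparisons had 1, 1, 1 and 0 of the 8, beside 10.5%, 13.7%, 13.0% and 12.4% of all genes. By the same rule Clone 1 against PC3-ML had 3 of 8 beside 25.3% of all genes, Clone 3 against PC3-ML 1 beside 20.6%, and Clone 1 against Clone 3 had 3 beside 20.5%. Read against those shares, 1 of 8 in Clone 1 lies near the background.

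Over line means, 0 of 8 were called between the bone-metastatic lines and the others, with 0 of 8 at an unadjusted p under 0.05 beside 12.2% of all genes. No gene at all was called there with limma (0%, 2250 genes at an unadjusted p under 0.05, 77 genes called with the line as a random block). The 4 bone-metastatic lines are all of PC3 background and 2 of the 3 others are DU-145, so label and background can be told apart through PC3-N alone. PC3 against DU-145 background gave 0 of 8, where 17.6% of all genes were called, 9.6% higher and 8.02% lower. The unadjusted p was under 0.05 for 3 of 8, beside 31.3% of all genes, a share near the background. These tests treat lines derived from one another as independent. The median log2 difference of the 8 genes was −0.08 in Clone 1 against PC3-ML, 0.10 in Clone 3 against PC3-ML and −0.05 in PC3 against DU-145 background, beside −0.02, −0.01 and −0.01 over all genes.

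The chromosomal neighbourhood of the PTGS2 and PLA2G4A pair was examined after their values were seen. Of the 10 nearest measured coding genes, 5 on either side, 2 rose in Clone 3 against PC3-ML, both on the PTGS2 side, where 5.2% of all genes rose. TPR, a nuclear pore protein gene, rose by 0.61 (SE 0.07, limma adjusted p = 0.0014), and ODR4 by 0.74 (SE 0.15, adjusted p = 0.016). The 10 differences ran from −0.10 to 0.74 with a median of 0.01, so neither gene reached the 2.24 of PLA2G4A. Intensities of the 10 genes are not given here, so a flat neighbour cannot be told from a gene without signal. In Clone 1 against PC3-ML 0 of the 10 were called, where 13.8% of all genes were, and the differences ran from −0.11 to 0.21. BRINP3, the next measured gene beyond PLA2G4A, read −0.10 in Clone 3 (adjusted p = 0.43).

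**Figure D3:**
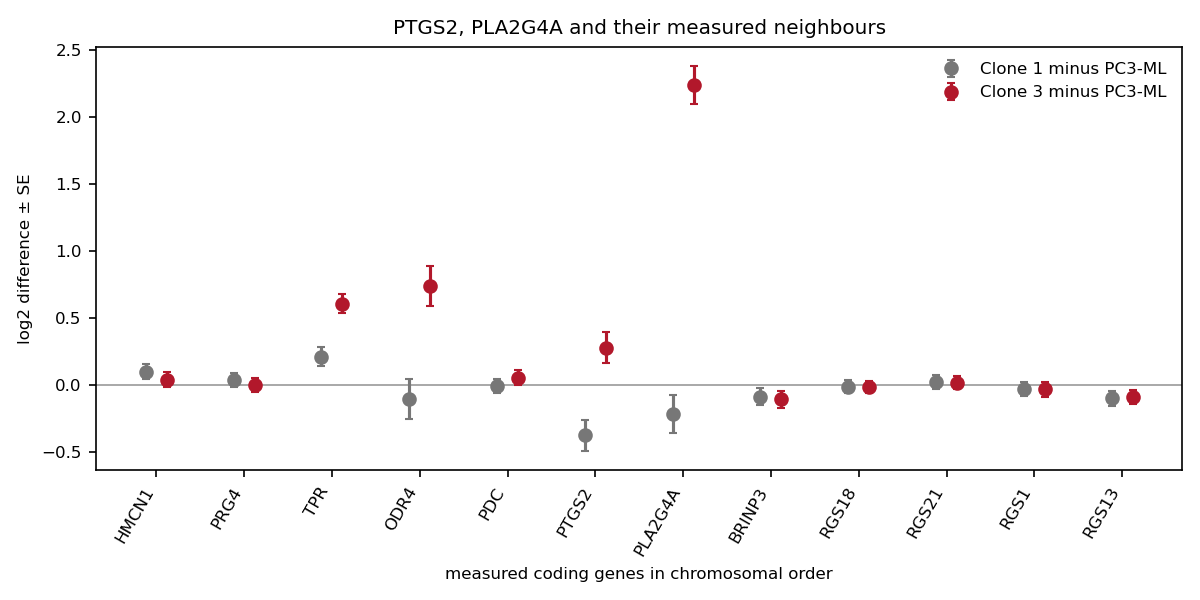
Log2 difference from PC3-ML (vertical axis, ± SE) of PTGS2, PLA2G4A and the 5 measured coding genes on either side, in chromosomal order along the horizontal axis without scale, for Clone 3 in red and Clone 1 in grey. TPR and ODR4 stand at 0.61 and 0.74 in Clone 3, PLA2G4A at 2.24, and the genes beyond PLA2G4A between −0.10 and 0.02.

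The genes with line profiles most like those of the 3 widest-varying members were sought among 2172 genes whose line means spanned at least 1 log2 unit, by Pearson r over 7 line means, as a description. The 7 points share ancestry, and for PLA2G4A 1 line sets most of the range. PLA2G4A was most like IFI44L (r = 0.998, or 0.969 without Clone 3), an interferon-induced gene, SERPINB3 (0.982, or 0.887), a serine protease inhibitor of squamous epithelia, and FER1L6 (0.972, or 0.618), a ferlin family gene. SERPINB3 read 643 and 705 in Clone 3, against 28.1 and 31.4 in PC3-ML, and IFI44L read 64.2 and 58.0 in Clone 3, against 25.7 and 27.2 in PC3-ML. IFI44L averaged 24.3 in Clone 1, and PLA2G4A line means outside Clone 3 ran from 21.6 to 35.8. The r of these genes without Clone 3 therefore rests in part on small differences near the low end of the scale. PTGES3 was most like NCOA4 (0.970), a ferritin autophagy receptor, PRIM1 (0.969), a primase subunit, and SELENOI (0.966), a phospholipid synthesis enzyme. HPGD was most like COL6A1 (0.985), a collagen, CDK5RAP3 (0.982) and EFNB1 (0.979), an ephrin.

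Other genes of arachidonate and eicosanoid metabolism were read from 7 lists, whose counts stand beside 5.2% of all genes higher and 2.9% lower in Clone 3 against PC3-ML and 9.01% and 4.77% in Clone 1 against PC3-ML. In Clone 3 against PC3-ML, 1 of 17 other phospholipase A2 genes rose, PLA2G7, whose product hydrolyses platelet-activating factor and oxidised phospholipids rather than arachidonate-rich membranes (229 and 157 in Clone 3 against 80.4 and 95.5 in PC3-ML, log2 difference 1.11, SE 0.22, adjusted p = 0.0142). Of 11 lipoxygenase and leukotriene genes 1 rose, LTA4H, which makes leukotriene B4 (0.65, SE 0.13, adjusted p = 0.0169). Of 15 arachidonate supply genes 2 rose and 1 fell: FADS1, a desaturase on the route to arachidonate (0.90, adjusted p = 0.0054), ACSL4, an acyl-CoA synthetase that prefers arachidonate (0.51, adjusted p = 0.0158), and ELOVL2, an elongase of polyunsaturated fatty acids (−0.42, adjusted p = 0.0398). Of 8 modulators of cytosolic phospholipase A2 and COX-2, ANXA1, described as a phospholipase A2 inhibitor, fell by 0.57 (SE 0.08, adjusted p = 0.0026). None of the 11 other synthases and reductases, 9 other receptors and transporters or 8 cyclic AMP-responsive genes passed the limma test. Medians of the 7 lists ran from −0.06 to 0.05, beside −0.01 over all genes.

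Of these 6 calls, that of ANXA1 was kept in every alternative. Without PC3-ML replicate 1 the others were lost (adjusted p = 0.119 for PLA2G7, 0.141 for LTA4H, 0.0567 for FADS1, 0.115 for ACSL4 and 0.27 for ELOVL2). Without Clone 3 replicate 1 PLA2G7 (0.103), LTA4H (0.113), ACSL4 (0.103) and ELOVL2 (0.187) were lost. Without Clone 3 replicate 2 LTA4H (0.0532), ACSL4 (0.0567) and ELOVL2 (0.116) were lost, and without PC3-ML replicate 2 ELOVL2 (0.0535), which was also lost with an intensity trend (0.0561) or the replicate number as a block (0.053).

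In Clone 1 against PC3-ML the receptor and transporter list had 2 of 9 genes higher. PTGFR, the prostaglandin F2 alpha receptor gene, read 37.4 and 48.7 in Clone 1, against 27.8 and 26.1 in PC3-ML (0.66, SE 0.11, adjusted p = 0.0039), and ABCC4, which exports prostaglandin E2, rose by 0.61 (adjusted p = 0.0050). Of 11 synthases and reductases 2 fell, CBR1 (−0.62, adjusted p = 0.0032) and CBR3 (−0.39, adjusted p = 0.0261), carbonyl reductases of which CBR1 can convert prostaglandin E2. Of 15 supply genes FADS1 (0.61) and ACSL1 (0.57) rose and ELOVL2 fell by 1.72 (39.0 against 128.6, adjusted p = 3.2e-05). Of 8 modulators 3 fell, S100A10 (−0.63), HNRNPD (−0.36) and ANXA2 (−0.35). S100A10, the partner of ANXA2, is known to bind cytosolic phospholipase A2, and HNRNPD binds unstable messenger RNAs. PLAAT3 was the 1 of 17 phospholipase A2 genes called (−0.47, adjusted p = 0.0156), and 0 of 11 lipoxygenase and 0 of 8 cyclic AMP-responsive genes passed.

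The calls of PTGFR, CBR1 and ELOVL2 in Clone 1 were kept in every alternative that held the gene, and each of the other calls depended on at least 1 array. The filter on dim genes removed PTGFR and so could not test its call. Without PC3-ML replicate 1 CBR3 (adjusted p = 0.126), ABCC4 (0.0522), FADS1 (0.142) and HNRNPD (0.0724) were lost, and without PC3-ML replicate 2 PLAAT3 (0.0969), CBR3 (0.0886), ANXA2 (0.091) and HNRNPD (0.0617). Without Clone 1 replicate 1 PLAAT3 (0.0869), CBR3 (0.183), FADS1 (0.123) and ANXA2 (0.0831) were lost. Without Clone 1 replicate 2 PLAAT3 (0.0677), ABCC4 (0.0513), FADS1 (0.0576), ACSL1 (0.0643), S100A10 (0.0547), ANXA2 (0.072) and HNRNPD (0.0811) were lost. Epithelial markers moved in the same comparison: EPCAM averaged 1635 in Clone 1 against 467 in PC3-ML, KRT8 404 against 214 and KRT18 255 against 58.6, and 3 of 5 epithelial markers were called, KRT18 not without PC3-ML replicate 1 (0.0679) or Clone 1 replicate 2 (0.0703). Of 3 endothelial markers PECAM1 was called, at 90.3 against 44.8, though not without PC3-ML replicate 1 (0.149) or Clone 1 replicate 2 (0.132), while VWF and CDH5 stayed between 22.5 and 23.5 in both lines. The part of these markers in the results was not tested.

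Directly between the clones, ELOVL2 (−1.30), PLA2G7 (−1.29) and LTA4H (−1.003) were lower in Clone 1, with adjusted p from 9.7e-05 to 0.0048, and these calls were kept in every alternative at adjusted p of at most 0.00189, 0.0451 and 0.0152 in that order of genes. LTA4H read 199 and 232 in Clone 1, against 451 and 410 in Clone 3. All list and marker calls between the clones stand beside 10.5% of all genes called, 5.85% higher and 4.63% lower in Clone 1. CBR1 (−0.56) and PTGFR (0.59) passed the test at adjusted p = 0.0064 and 0.0086, but CBR1 was lost without Clone 3 replicate 2 (0.0558) and PTGFR without Clone 3 replicate 1 (0.0559). A further 7 list genes passed with adjusted p from 0.0184 to 0.05, and each was lost without any 1 of 3 or 4 of the 4 clone arrays, at adjusted p of 0.0564 to 0.287, with PTGR1, ACSL1 and ANXA2 lost under other settings too (0.0515 to 0.0807): PTGR1 (0.36), ABCC4 (0.45), ACSL1 (0.39) and ANXA1 (0.33), higher in Clone 1, and ACSL4 (−0.46), HNRNPD (−0.32) and ANXA2 (−0.28), lower in it. Markers moved here too: of 5 epithelial markers 2 were called, EPCAM (1635 in Clone 1 against 454 in Clone 3, 1.85, adjusted p = 3.1e-05) and KRT8 (404 against 240.2, 0.75, adjusted p = 0.0151). Of 3 endothelial markers PECAM1 was called (90.3 against 48.7, 0.89, adjusted p = 0.039), and of 3 prostate luminal markers HOXB13 (101.1 against 202.7, −1.02, adjusted p = 0.0327). EPCAM was kept in every alternative, while KRT8, PECAM1 and HOXB13 were each lost without any 1 of 3 or 4 clone arrays, at adjusted p of 0.0531 to 0.239. Their part was not tested.

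Between PC3 and DU-145 backgrounds, 6 of the 7 lists held called genes, beside 9.6% of all genes called higher and 8.02% lower. Of 11 other synthases and reductases 5 were higher and 1 lower in the PC3 lines, and the list's median difference was 0.14 beside −0.01 over all genes. PTGR3, PTGR1 and PTGR2 encode reductases that complete prostaglandin inactivation after HPGD. PTGR3 averaged 131.1 in the PC3 lines against 41.3 in the DU-145 lines (1.67, SE 0.15, adjusted p = 0.0012), and PTGR2 189 against 116 (0.71, SE 0.07, adjusted p = 0.0019), whereas PTGR1 averaged 265 against 572 (−1.11, SE 0.10, adjusted p = 0.0010). The 5 PC3 line means of PTGR1 ran from 236 to 302, below both DU-145 line means of 607 and 538. These 3 calls were kept in every alternative. AKR1C3, a prostaglandin F synthase that also makes androgens (1.005, adjusted p = 0.0181), TBXAS1, the thromboxane synthase gene (0.60, adjusted p = 0.0260), and CBR3 (0.52, adjusted p = 0.0355) were higher too.

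Among the other lists, PLA2G7 averaged 113 in the PC3 lines against 26.1 in the DU-145 lines (2.004, SE 0.39, adjusted p = 0.0178), 1 of 17 phospholipase A2 genes. SLCO2A1, the prostaglandin uptake transporter gene, was lower (25.8 against 33.0, −0.35, adjusted p = 0.0037), 1 of 9. Of 11 lipoxygenase genes ALOX15B (32.2 against 37.8, −0.22) and ALOX5 (23.8 against 25.8, −0.12) were lower as well. CELF2 (−0.64, adjusted p = 0.00056) and ZFP36 (−0.38, adjusted p = 0.0163), both of which bind COX-2 messenger RNA, were lower, 2 of 8 modulators. Of 8 cyclic AMP-responsive genes CREM was higher (46.5 against 28.9, 0.69, adjusted p = 0.0024) and PDE4B lower (22.4 against 25.1, −0.16), and 0 of 15 supply genes passed. ALOX5 and PDE4B lay near CTNNA1 in the PC3 lines (23.6), so their small differences cannot be told from background signal. The filter on dim genes removed both, as it did ALOX15B. The calls of SLCO2A1, CELF2 and CREM were kept in every alternative that held the gene, but the filter on dim genes removed SLCO2A1 and CELF2. Markers of the lines differed as well: CTNNA1 averaged 23.6 in the PC3 lines against 199.1 in the DU-145 lines, CDH1 29.6 against 110, KRT19 540 against 336, HOXB13 149 against 32.8 and PECAM1 63.8 against 22.2. The call of CTNNA1 was kept in every alternative, and the other 4 were each lost without at least 1 line, at adjusted p of 0.0506 to 0.267. Their part was not tested.

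With 2 DU-145 lines, leaving out either ended several of these calls. Without DU-145 the adjusted p was 0.104 for PLA2G7, 0.115 for TBXAS1, 0.0916 for AKR1C3, 0.176 for CBR3, 0.0778 for ALOX5 and 0.0669 for ZFP36. Without DU-145 (PDGFRα) it was 0.112, 0.162, 0.131, 0.151, 0.237 and 0.133 for the same genes, 0.183 for ALOX15B and 0.156 for PDE4B. Without PC3-ML it was 0.0556 for TBXAS1, 0.0704 for CBR3, 0.0824 for ALOX5 and 0.0579 for ALOX15B. Without PC3-N it was 0.0647 for CBR3, 0.0871 for ALOX5, 0.0539 for ALOX15B and 0.0504 for PDE4B, and without PC3-N(PDGFRα) 0.0533 for TBXAS1, 0.0537 for CBR3 and 0.0706 for ALOX5. Without Clone 3 it was 0.068 for CBR3, 0.0692 for ALOX5 and 0.0538 for ALOX15B, and without Clone 1 0.0698 for ALOX5. After quantile normalization it was 0.0991 for CBR3, 0.14 for ALOX5 and 0.0512 for PDE4B.

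**Figure D4:**
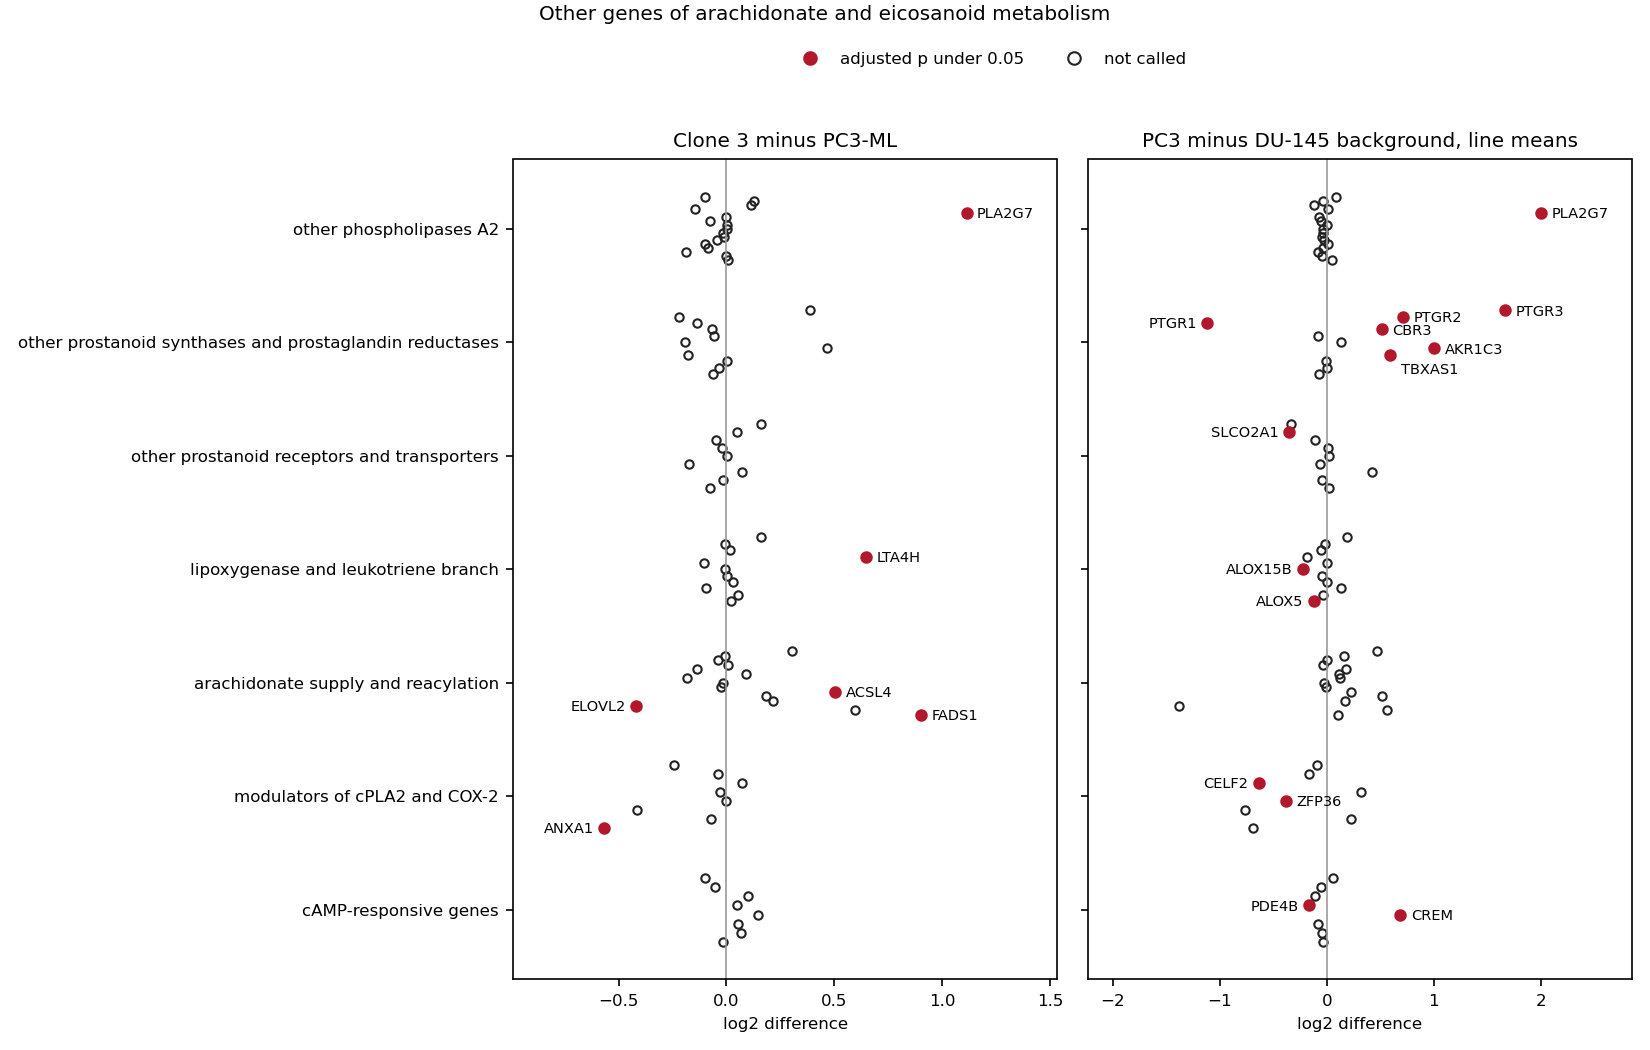
Log2 difference (horizontal axis) of every measured gene of 7 lists, for Clone 3 minus PC3-ML on the left and for PC3-background minus DU-145-background line means on the right, with the lists down the page and points spread vertically within a list for legibility. Filled red points are called, among them PLA2G7 at 1.11 and 2.004, PTGR3 at 1.67 and PTGR1 at −1.11 on the right, and ANXA1 at −0.57 on the left.

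In the comparisons that touch PDGFRα and the PC3 sublines 1 list gene in all was called. PC3-ML against PC3-N called 1 of 15 supply genes, ELOVL2 (128.6 against 72.3, 0.83, SE 0.11, adjusted p = 0.0142), a call lost without PC3-ML replicate 1 (0.15) or PC3-N replicate 1 (0.105), and 0 genes of the 6 other pathway lists. The epithelial marker KRT8 was lower in PC3-ML in the same comparison (214 against 453, −1.08, adjusted p = 0.0308, lost without PC3-ML replicate 1, 0.256, PC3-ML replicate 2, 0.071, or PC3-N replicate 1, 0.2), and its part was not tested. PC3-N(PDGFRα) against PC3-N, DU-145 (PDGFRα) against DU-145, the difference between these effects and the bone-metastatic lines against the others called 0 genes of all 7 lists with limma. Over all genes these comparisons called 2.2%, 0.31%, 0.533% and 0% in that order, and PC3-ML against PC3-N called 0.348%. With so few calls anywhere, such counts cannot set the lists apart from other genes. Over the 7 lists the PDGFRα comparisons had medians of −0.05 to 0.03 in PC3-N and −0.07 to 0.05 in DU-145, beside −0.004 and 0.003 over all genes.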

How the data were processed

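Total RNA of 7 prostate cancer cell lines, 2 passages each, was labelled with biotin and hybridised to 1-colour arrays. The authors deposited RMA intensity values, per the submitters' processing notes, with background correction, normalization and summary per probe set, the version not being given in the sources used here. The values are intensities on a linear scale, judged from their range, and were converted to log2 with no pseudocount. Of 28829 probe sets, 19291 carried 1 gene symbol, 1735 several and 7803 none in the probe table. Where a gene had several, the set with the highest mean over 14 arrays stood for it, which left 18372 genes. Each of the 9 members had 1 probe set, and all 9 had a RefSeq promoter window.

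The log2 values of all arrays entered 1 limma 3.58.1 model (R 4.3.3) with a mean for each line, leaving 7 residual degrees of freedom, and 2 comparisons used 7 line means. A gene was called at a Benjamini-Hochberg adjusted p under 0.05 over all genes, two-sided. The scripts were tested on simulated data. The members, gene lists and tests were chosen with earlier results of these data known. Named were all members, PDGFRA, up to 4 called genes per list and comparison, and for members spanning at least 1 log2 unit the 3 genes most alike. Between PC3 and DU-145 backgrounds all called synthase and reductase genes were named, which exceeds that limit. A gene was called overlapping between lines when the ranges of their arrays overlapped. Alternatives were quantile normalization, a pseudocount of 16, a filter keeping genes above an intensity of 50 on at least 2 arrays, an intensity trend, a replicate block or line as a random block, the mean over probe sets, and leaving out each array or line. The number of arrays limits the precision.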

Additional observations from a re-analysis of the deposited data

Results flagged for a closer look

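Among groups of 4 or 5 lines, PTGER4 in PC3-N stood apart from the other 4 PC3 lines: its gap to the nearest line mean was 0.755 of the group's whole log2 range, above the 95% critical value of Dixon's test, with mean intensities of 33.5 to 34.4 in the other PC3 lines and 37.5 in PC3-N. This was 1 of 16 groups examined over the 8 genes other than PLA2G4A, and chance alone gives about 1 in 20. For PLA2G4A in Clone 3, chosen for its level there, the same share is a description with no test: 0.869 among the 4 bone-metastatic lines and 0.869 among the 5 PC3 lines.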

How the results depend on the processing

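Of 873 values of the 9 genes under alternatives, 48 changed sign and 0 of these were of called differences. The 3 called differences had 29 alternative values, and 23 kept the call. Genes removed by the filter on dim values have no value there. Counts of all genes called moved as follows. PC3-ML against PC3-N called 64 genes, 107 with the dim filter (56 higher, 51 lower, beside 40 and 24), 93 with an intensity trend (48 and 45), 42 with the replicate block and 12 to 170 when 1 array was left out (170 without PC3-N replicate 2). PC3-N(PDGFRα) against PC3-N called 405, and 71 to 404. DU-145 (PDGFRα) against DU-145 called 57 (12 higher, 45 lower), 20 with a pseudocount of 16, 91 with a trend, 10 with the replicate block, 74 after quantile normalization (23 and 51), 84 with the dim filter (9 and 75), and 15 to 418 (418 without DU-145 replicate 2). The difference of these effects called 98, and 26 to 249. Clone 1 against PC3-ML called 2533, and 1213 to 1981. Clone 3 against PC3-ML called 1489, and 431 to 1232. Clone 1 against Clone 3 called 1925, and 1018 to 1123. The bone-metastatic lines against the others called 0, 77 with the line as a random block, and 0 to 2520 when 1 line was left out, the highest without PC3-N, where the comparison becomes PC3 against DU-145 background. PC3 against DU-145 background called 3237, and 1180 to 3392, with 1887 higher and 971 lower under the dim filter beside 1764 and 1473. The causes were not tested, except that fewer arrays or genes enter by construction. Replicate numbers are shared by the lines but pair no samples: same-numbered passages deviated with r of −0.199 to 0.245 over genes, and besides the block counts above, PTGS2 in Clone 1 against PC3-ML was called with the replicate block (adjusted p = 0.0432). With crossed numbers, chosen after seeing the data, PC3-ML against PC3-N called 66 and Clone 3 against PC3-ML 1456.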
